A study of Mus musculus with 9 samples.

Results

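The genes described here are 9 transcription factors that drive the change of epithelial cells to a mesenchymal state: Zeb1, Zeb2, Snai1, Snai2, Twist1, Twist2, Tcf4, Prrx1 and Foxc2. They were chosen by name from the gene symbols of the deposited expression table, where all 9 of 9 were found among 24493 genes. Expression was measured by RNA sequencing in cultured mouse pancreatic tumor cells of C57BL/6 background, untreated, in 3 libraries each of the lines escape e1 and escape e2 and of the parental cells. The escape lines were derived from the parental line and are described by the series as resistant to immunotherapy; how they were selected, and whether each is a single clone, is not given in the sources used here. Values are in TPM, an abundance per transcript length scaled to a fixed library total, from which sequencing depth cannot be read. Nothing in the labels ties the 3 libraries of a line to separate cultures; the p-values therefore cover the spread among these libraries, which may be technical.

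In epithelial cells, zinc finger factors of the Snail and Zeb families bind E-box DNA and repress genes of cell junctions, among them the E-cadherin gene Cdh1. Twist factors are basic helix-loop-helix proteins that bind E-boxes as dimers with E-proteins such as the Tcf4 product, and Id proteins hold E-proteins in dimers that do not bind DNA. Prrx1 is a homeobox factor of embryonic mesenchyme and of fibroblasts, and Foxc2 a forkhead factor of mesoderm and lymphatic vessels. The Tcf4 described here is the E-protein also called E2-2, not the Wnt effector of the same older name, whose gene is Tcf7l2. In carcinomas, those of the pancreas included, these factors are known for loss of the epithelial state.

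Snai1, Twist1 and Twist2 rose in both escape lines, with the highest fold changes in e1 among the members detected in parental cells, on the log2(TPM + 1) scale. Their promoter sequence is therefore shown, as the 250 bases before the annotated start, 5′ to 3′ on the gene's strand, from RefSeq on GRCm38.p6; the table used matched 5 of the 9 factors. The windows are chr2:167537945-167538194 for Snai1, chr12:33957421-33957670 for Twist1 and chr1:91801211-91801460 for Twist2, all on the plus strand. Capitals mark the motifs searched on both strands, which were the E-box CANNTG, its Snail and Zeb form CAGGTG, which is contained in CANNTG, the TATA box TATAAA, the CCAAT box CCAAT and the GC box GGGCGG.
Snai1: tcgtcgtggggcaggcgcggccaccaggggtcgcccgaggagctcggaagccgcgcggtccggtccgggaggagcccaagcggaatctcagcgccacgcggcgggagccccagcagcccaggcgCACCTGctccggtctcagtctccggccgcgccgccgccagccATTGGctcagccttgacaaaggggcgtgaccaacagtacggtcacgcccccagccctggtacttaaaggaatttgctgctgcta
Twist1: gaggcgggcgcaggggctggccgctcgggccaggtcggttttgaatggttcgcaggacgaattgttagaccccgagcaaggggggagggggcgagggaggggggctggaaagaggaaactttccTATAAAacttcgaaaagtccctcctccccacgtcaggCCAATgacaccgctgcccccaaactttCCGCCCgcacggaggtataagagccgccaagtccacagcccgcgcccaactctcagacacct
Twist2: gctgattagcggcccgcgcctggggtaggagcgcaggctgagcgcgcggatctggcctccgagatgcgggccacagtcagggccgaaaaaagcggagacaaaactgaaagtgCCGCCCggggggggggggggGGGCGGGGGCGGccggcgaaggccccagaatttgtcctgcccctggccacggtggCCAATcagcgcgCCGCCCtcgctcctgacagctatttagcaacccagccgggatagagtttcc
The Snai1 window held an E-box of the Snail and Zeb form, read CACCTG on this strand, that begins 126 bases before the start, and a CCAAT box. The Twist1 window held a match to the string TATAAA that also begins 126 bases before the start, a CCAAT box and a GC box, and the Twist2 window a CCAAT box and 4 GC boxes. Whether the TATAAA match acts as a TATA box was not tested. Neither Twist window held CANNTG. Of 32851 promoter windows of the same length, 66.2% held CANNTG, 17.2% CAGGTG, 12.4% TATAAA, 33.8% CCAAT and 32.7% GGGCGG. CG dinucleotides numbered 27 for Snai1, 18 for Twist1 and 23 for Twist2, against a median of 6 over all windows (quartiles 2 and 16). These matches are descriptions of the sequence only.

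Setting e1 and e2 against the parental cells asks which of these factors each resistant line holds at a changed level. All 9 factors were higher in e1 than in parental cells, and 8 of 9 in e2. The exception in e2 was Snai2. Among the members listed above 0 in parental cells, the highest fold change was that of Snai1 in e1 and of Prrx1 in e2. Both genes stood under 1 TPM in every parental library, so the size of these changes depends on the pseudocount. The order below the highest also depends on the pseudocount for genes near 0 in parental cells: in e2 Twist2 stood at 4.04 and Snai1 at 3.21 with a pseudocount of 1, and at 4.40 and 4.56 with one of 0.1. A linear model was fitted to log2(TPM + 1) over 12769 genes with limma, and a gene was called at a Benjamini-Hochberg adjusted p under 0.05; all adjusted p-values given below are from this two-sided test over all 12769 genes unless another setting is named, and fold changes are differences on that log2 scale ± SE. Calls were common in these data, since 70.6% of all tested genes were called in e1 against parental cells, 35.7% as higher and 34.9% as lower, and 73.5% in e2, 40.8% as higher and 32.7% as lower. The balance of directions in e2 depends on the scaling: 5209 genes were higher and 4174 lower here, against 4633 and 4828 after median-ratio scaling and 4625 and 4808 in the rlog table. The libraries of all 9 factors did not overlap between e1 and parental cells, nor between e2 and parental cells, where 71.4% and 81.4% of all tested genes did not overlap. The median fold change of the 9 factors was 2.29 in e1 and 2.46 in e2, against 0.02 and 0.07 over all tested genes; Foxc2, listed at 0 in parental cells, enters these medians at its fitted value. All 9 passed the filter on low values, but Zeb2, Snai1, Prrx1 and Foxc2 did so through escape libraries alone, so for these 4 the filter itself favoured a higher escape level. The other 5 stood at 1 TPM or more in every library.

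**Figure D1:**
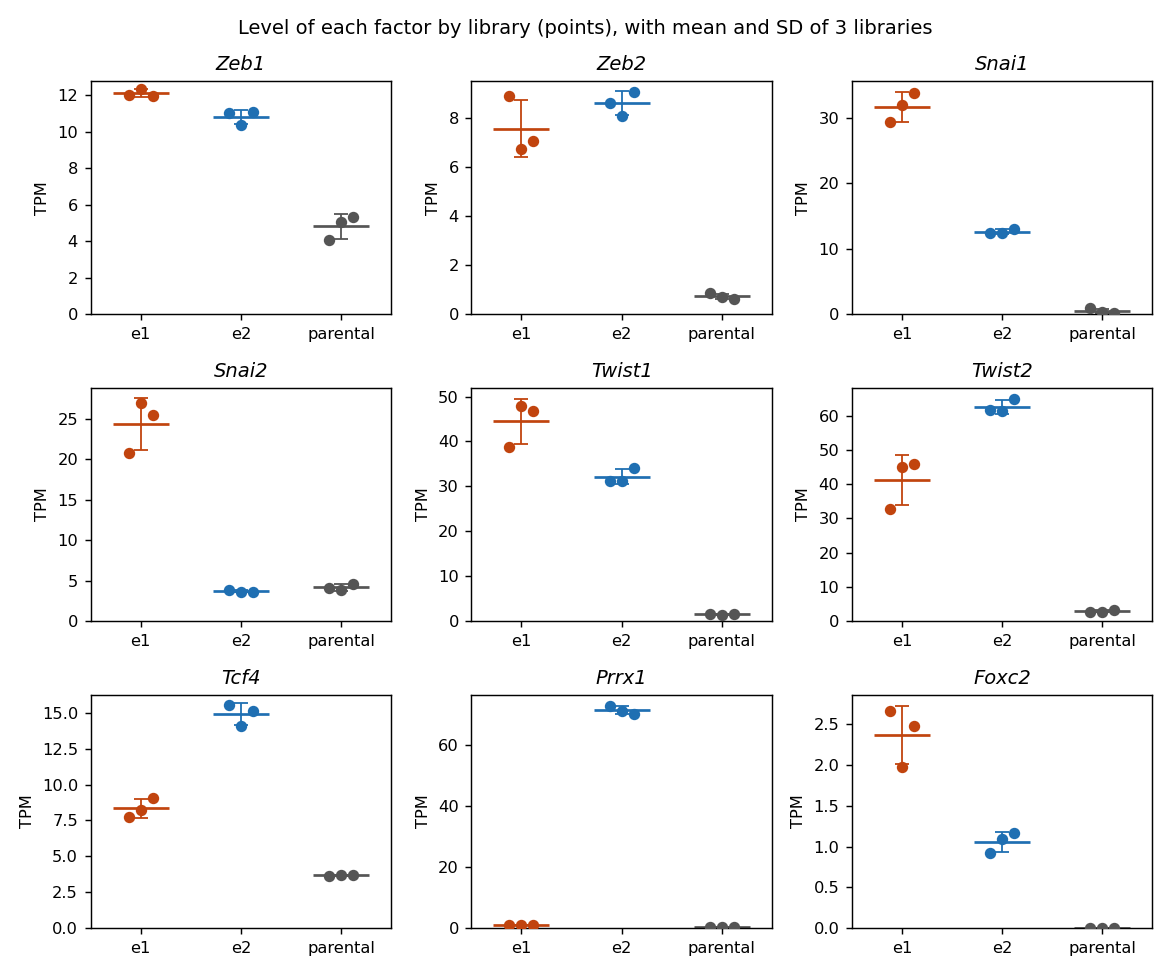
TPM of each of the 9 factors in each library of e1, e2 and parental cells; points are libraries, the horizontal line is the group mean and the bar the SD of 3 libraries, with a separate linear axis from 0 for each gene. Prrx1 stands at 70.2 to 72.9 TPM in e2 only, Snai2 at 20.8 to 27.0 TPM in e1 only, and both Twist genes stand high in both lines.

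The Twist genes were among the members with the highest levels in both lines. Twist1, on chromosome 12 (33957671 to 33959831), stood at 38.8, 47.9 and 46.9 TPM in e1 and at 31.1, 31.2 and 34.0 TPM in e2, against 1.54, 1.33 and 1.60 TPM in parental cells. The 3 groups did not overlap, with e1 above e2 and both far above the parental cells. Twist1 rose by 4.19 ± 0.09 in e1 (adjusted p = 3.51e-10) and by 3.73 ± 0.09 in e2 (adjusted p = 6.38e-10), and its mean TPM was 29.9 and 21.5 times the parental mean. Twist2, on chromosome 1 (91801461 to 91848034), stood at 32.7, 44.9 and 45.7 TPM in e1 and at 61.5, 61.2 and 65.0 TPM in e2, against 2.61, 2.76 and 3.29 TPM in parental cells. Here the order of the lines was turned round, with every e2 library above every e1 library. Twist2 rose by 3.43 ± 0.12 in e1 (adjusted p = 9.07e-09) and by 4.04 ± 0.12 in e2 (adjusted p = 2.94e-09). The ratio of Twist1 to Twist2 was 1.03 to 1.19 in the e1 libraries and 0.506 to 0.523 in the e2 libraries, against 0.483 to 0.592 in the parental libraries. Twist1 and Twist2 transcripts of the GENCODE M21 annotation share 0 sequence words of 31 bases, so their reads can be told apart where they are that long.

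The Snail genes separated the lines. Snai1, which encodes Snail, a direct repressor of Cdh1, is on chromosome 2 (167538195 to 167542814) and stood at 29.3, 31.9 and 33.8 TPM in e1 and at 12.5, 12.4 and 13.0 TPM in e2, against 0.902, 0.356 and 0.244 TPM in parental cells. It rose in both lines, by 4.47 ± 0.14 in e1 (adjusted p = 3.86e-09) and by 3.21 ± 0.14 in e2 (adjusted p = 3.34e-08). These sizes depend on the pseudocount, and ran from 4.35 to 5.88 in e1 and from 3.09 to 4.56 in e2 over the alternatives. Snai2, which encodes Slug and is on chromosome 16 (14705852 to 14709395), stood at 20.8, 27.0 and 25.5 TPM in e1 and at 3.83, 3.66 and 3.59 TPM in e2, against 4.05, 3.87 and 4.63 TPM in parental cells. It rose in e1 by 2.29 ± 0.10 (adjusted p = 4.04e-08), to 5.84 times the parental mean. In e2 all 3 libraries lay just under the lowest parental library, and the fold change of -0.14 ± 0.10 did not pass (adjusted p = 0.233; 95% confidence interval -0.37 to 0.09). That p ran from 0.0508 to 0.543 over the 18 alternatives tried; the fold change was -0.22 after median-ratio scaling and -0.08 without parental library 3. The ratio of Snai1 to Snai2 was 1.18 to 1.41 in the e1 libraries and 3.26 to 3.63 in the e2 libraries, against 0.0527 to 0.223 in the parental libraries. Snai3, a relative that was not a member of the set, went the other way and stood at 0.147, 0.0550 and 0.0521 TPM in e1 and at 0.175, 0.104 and 0.154 TPM in e2, against 10.0, 8.84 and 9.01 TPM in parental cells (-3.25 in e1, adjusted p = 7.4e-10, and -3.17 in e2, adjusted p = 8.24e-10). Snai3 passed the filter through parental libraries alone, which favoured a lower escape level, and the pseudocount sets the size of its change.

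Both Zeb genes rose in both lines. Zeb1, which represses epithelial genes in a mutual loop with the miR-200 family, is on chromosome 18 (5591327 to 5775468). It stood at 12.01, 12.36 and 11.96 TPM in e1 and at 11.0, 10.4 and 11.1 TPM in e2, against 4.05, 5.08 and 5.32 TPM in parental cells. Zeb1 was the member with the highest mean in parental cells, and its mean TPM was 2.52 times that level in e1 and 2.25 times in e2. The fold change was 1.18 ± 0.09 in e1 (adjusted p = 1.52e-06) and 1.03 ± 0.09 in e2 (adjusted p = 3.73e-06). Zeb2, on chromosome 2 (44983512 to 45117442), stood at 8.89, 6.72 and 7.06 TPM in e1 and at 8.60, 8.08 and 9.06 TPM in e2, against 0.853, 0.720 and 0.640 TPM in parental cells. It rose by 2.29 ± 0.11 in e1 (adjusted p = 5.2e-08) and by 2.46 ± 0.11 in e2 (adjusted p = 2.74e-08). These sizes depend on the pseudocount, and ran from 2.18 to 3.19 in e1 and from 2.39 to 3.38 in e2 over the alternatives. The ratio of Zeb1 to Zeb2 was 1.35 to 1.84 in the e1 libraries and 1.22 to 1.28 in the e2 libraries, against 4.74 to 8.31 in the parental libraries. Zeb2os, which overlaps Zeb2 on the opposite strand, averaged 1.07 ± 0.499 TPM in e1 and 2.56 ± 0.283 TPM in e2, against 0.224 ± 0.112 TPM in parental cells (SD, n = 3 each). Whether counting used strand is not given in the sources used here, so reads from these overlapping genes cannot be told apart with certainty.

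Prrx1 was high in e2 and low in e1 and in parental cells. The gene, on chromosome 1 (163245119 to 163315145), stood at 0.961, 0.984 and 1.06 TPM in e1 and at 72.9, 71.0 and 70.2 TPM in e2, against 0.174, 0.157 and 0.200 TPM in parental cells. It was the highest member in every e2 library and the lowest in every e1 library. Its fold change in e2 of 5.94 ± 0.06 (adjusted p = 1.08e-11) ranked 20 of 12769 tested genes from the top. The size of that change depends on the pseudocount at these parental levels, and ran from 5.86 to 8.01 over the 18 alternatives. In e1 the fold change was 0.77 ± 0.06 (adjusted p = 3.78e-06), a value that depends on the pseudocount at these levels and was 1.99 with a pseudocount of 0.1 and 1.68 with the deposited rlog values. Its relative Prrx2 averaged 70.7 ± 29.1 TPM in e1 and 49.8 ± 1.86 TPM in e2, against 38.5 ± 2.71 TPM in parental cells (SD, n = 3 each). Prrx2 passed in e1 at 0.76 (adjusted p = 0.0428) and at 1.17 (adjusted p = 1.47e-07) without e1 library 1, which held 37.3 TPM beside 85.3 and 89.7 TPM in the other two. It passed under 8 of 18 alternatives. In e2 Prrx2 did not pass (adjusted p = 0.283), but did without e1 library 1 (adjusted p = 0.000235), where it was also lower than in e1, at -0.80 (adjusted p = 2.61e-06; with that library -0.40, adjusted p = 0.249).

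Tcf4 rose in both lines and Foxc2 was detected in the escape lines at low levels. Tcf4, on chromosome 18 (69343429 to 69687967), stood at 7.76, 8.23 and 9.05 TPM in e1 and at 15.6, 14.1 and 15.1 TPM in e2, against 3.65, 3.67 and 3.72 TPM in parental cells. Its groups did not overlap, and its mean TPM was 2.27 times the parental level in e1 and 4.06 times in e2. The fold change was 0.996 ± 0.07 in e1 (adjusted p = 1.27e-06) and 1.77 ± 0.07 in e2 (adjusted p = 1.98e-08). Foxc2, on chromosome 8 (121116171 to 121118895), stood at 2.66, 1.97 and 2.48 TPM in e1 and at 0.918, 1.09 and 1.16 TPM in e2, and was listed at 0 in all 3 parental libraries. It passed in e1 (adjusted p = 1.46e-07) and in e2 (adjusted p = 5.38e-06), and no fold is given against a level of 0. Foxc2 shares 34 sequence words of 31 bases with its relative Foxc1, 1.26% of its own, and Foxc1 averaged 7.59 ± 1.78 TPM in e1 and 8.92 ± 0.728 TPM in e2, against 1.32 ± 0.122 TPM in parental cells (SD, n = 3 each).

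The comparison of e2 with e1 asks whether the lines differ in the factors they hold. It called 7 of 9 factors, 3 higher and 4 lower in e2, where 70.3% of all tested genes were called, 40.6% as higher and 29.7% as lower, so the members' share is near that of all genes. Of all genes 5189 were higher and 3792 lower in e2, against 4624 and 4449 after median-ratio scaling and 4656 and 4467 in the rlog table. Prrx1 was higher in e2 by 5.18 ± 0.06 (adjusted p = 5.2e-11) and ranked 14 of 12769 tested genes from the top. The size of that change ran from 5.09 to 6.02 over the alternatives. Tcf4 was higher by 0.77 ± 0.07 (adjusted p = 9.72e-06) and Twist2 by 0.61 ± 0.12 (adjusted p = 0.00154). On the other side Snai2 was lower in e2 by a log2 fold change of -2.43 ± 0.10 (adjusted p = 5.28e-08), rank 60 from the bottom, and Snai1 by one of -1.26 ± 0.14 (adjusted p = 3.29e-05). Foxc2, at -0.71 ± 0.09 (adjusted p = 9.38e-05), and Twist1, at -0.45 ± 0.09 (adjusted p = 0.00132), were also lower in e2. The libraries of e2 and e1 did not overlap for 8 of the 9 factors, where 76.5% of all tested genes did not overlap, and Zeb2 was the exception. Neither Zeb gene passed. Zeb1 had a fold change of -0.15 ± 0.09 (adjusted p = 0.153; 95% confidence interval -0.35 to 0.05), and Zeb2 of 0.17 ± 0.11 (adjusted p = 0.173; interval -0.07 to 0.41). For Zeb1 the call depended on the setting: it passed at -0.24 after median-ratio scaling (adjusted p = 0.0232), at -0.22 in the rlog table (adjusted p = 0.0196), in a fit of e1 and e2 alone (adjusted p = 0.044) and without parental library 1 (adjusted p = 0.0318). Zeb2 passed without e1 library 1, at 0.28 (adjusted p = 0.0113), and was 0.08 both in the rlog table and after median-ratio scaling, and 0.10 without e1 library 2.

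**Figure D2:**
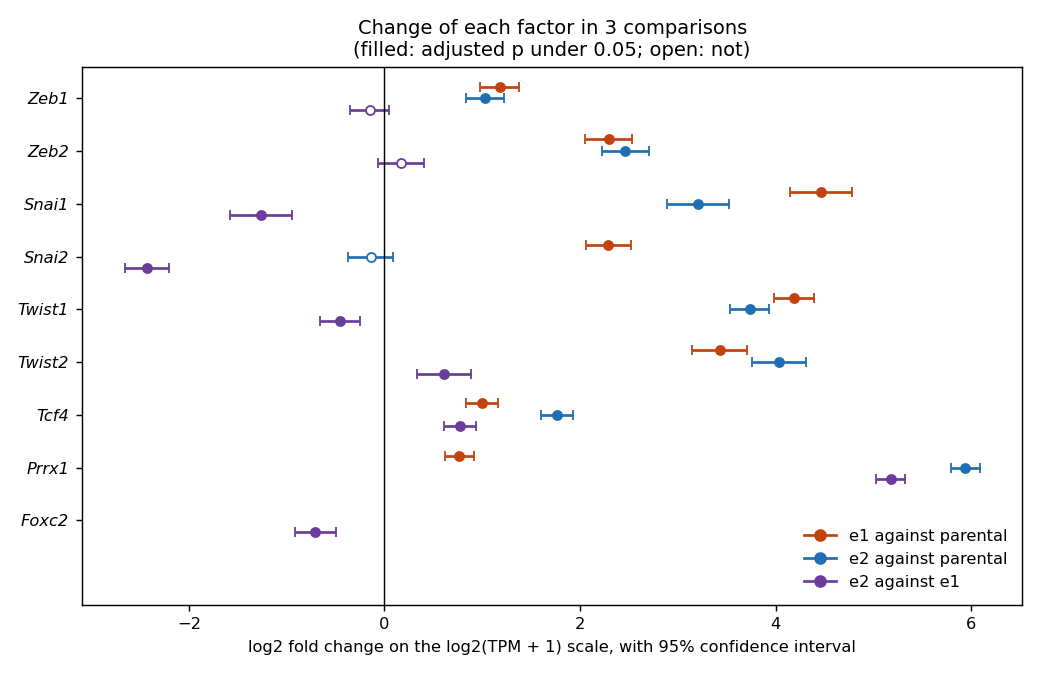
Log2 fold change of each factor on the log2(TPM + 1) scale with its 95% confidence interval, for e1 against parental, e2 against parental and e2 against e1; filled points passed at an adjusted p under 0.05 and open points did not. Foxc2 is plotted for e2 against e1 alone, since it is listed at 0 in parental cells; Prrx1 and Snai2 lie farthest from 0 in e2 against e1.

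Set side by side per transcript length, the factors formed a different order in each group. Their TPM summed to 173 ± 16.7 in e1 and 218 ± 4.58 in e2, against 18.5 ± 1.01 in parental cells (SD, n = 3 each). In e1 the mean levels ran from Twist1 through Twist2, Snai1, Snai2, Zeb1, Tcf4, Zeb2 and Foxc2 to Prrx1. The libraries of Twist1 and Twist2, of Twist2 and Snai1, and of Tcf4 and Zeb2 overlapped there. Within a library, Twist1 was above Twist2 and Twist2 above Snai1 in all 3 e1 libraries, while Tcf4 was above Zeb2 in libraries 2 and 3 and below it in library 1. In e2 the order ran from Prrx1 through Twist2, Twist1, Tcf4, Snai1, Zeb1, Zeb2 and Snai2 to Foxc2, and no neighbours overlapped. In parental cells it ran from Zeb1 through Snai2, Tcf4, Twist2, Twist1, Zeb2, Snai1 and Prrx1 to Foxc2, where Zeb1 and Snai2, and Zeb2 and Snai1, overlapped.

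The same values as shares show which factors filled the set. Prrx1 held 32.8 ± 1.03% of the summed TPM in e2 and 0.581 ± 0.0421% in e1, against 0.956 ± 0.0757% in parental cells (SD, n = 3 each). Both Twist genes together were the main part of the sum in e1, where Twist1 held 25.7 ± 0.571% and Twist2 23.6 ± 2.06%. Their shares were large in e2 as well, where Twist1 held 14.7 ± 0.516% and Twist2 28.7 ± 0.505%. Snai1 held 18.3 ± 0.761% and Snai2 14.1 ± 0.679% in e1, while in e2 they held 5.80 ± 0.0716% and 1.70 ± 0.0722%. Zeb1 held 7.04 ± 0.678% in e1 and 4.97 ± 0.101% in e2, against 26.0 ± 2.94% in parental cells, where Snai2 held 22.6 ± 1.02% and Tcf4 19.9 ± 0.855%.

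**Figure D3:**
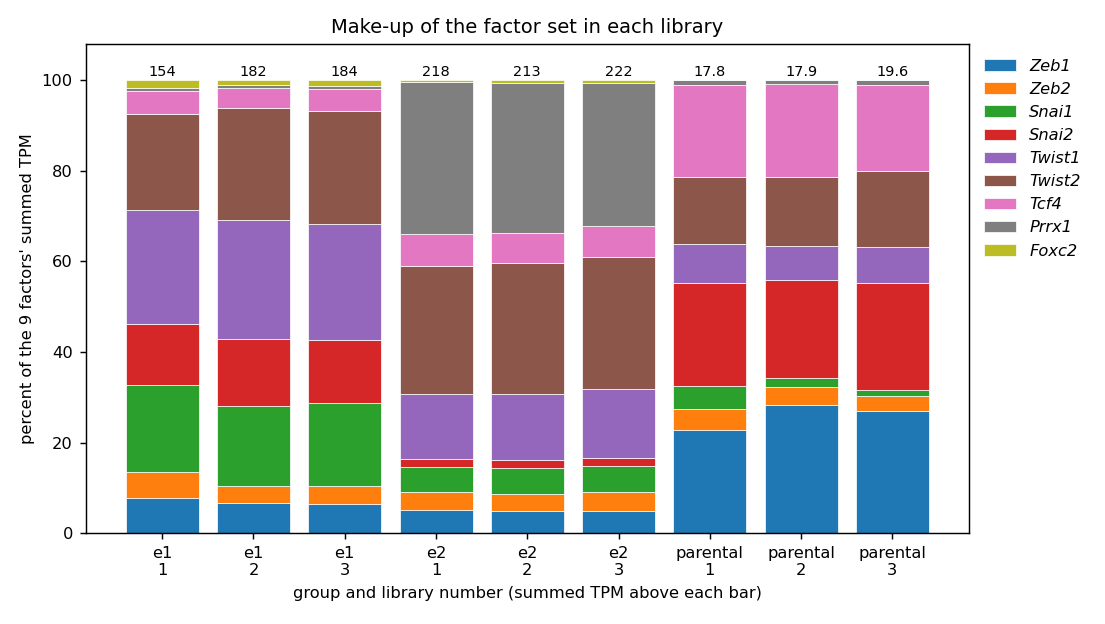
Percent of the summed TPM of the 9 factors held by each factor, for each library of e1, e2 and parental cells, with the summed TPM of the library above its bar. Twist and Snail genes fill most of the e1 bars, Prrx1 and Twist2 most of the e2 bars, and Zeb1, Snai2 and Tcf4 most of the parental bars.

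Among the members, the profiles over the 9 libraries most alike were those of Zeb1 and Foxc2, and of Snai1 and Twist1, with root-mean-square differences of 0.30 and 0.37 between the centred log2 values. The profile of Foxc2 depends on the pseudocount of 1. Foxc2 averaged 2.37 TPM in e1 and 1.06 TPM in e2 and was listed at 0 in parental cells. Zeb1 averaged 12.1, 10.8 and 4.82 TPM in these groups. The likeness of Zeb1 and Foxc2 was not examined with another pseudocount. The profiles least alike were those of Snai2 and Prrx1, at 3.29. Among 11908 other named genes, the nearest to Prrx1 was Plvap, a protein of endothelial pores, at a difference of 0.08, which averaged 0.760 TPM in e1 and 63.4 TPM in e2, against 0.0381 TPM in parental cells. Nearest to Snai2 were C1qtnf3, a secreted protein with a C1q domain, the cysteine-rich LIM protein gene Csrp1 and the integrin gene Itgb3, at 0.11, 0.12 and 0.12. Nearest to Twist1 was the Wnt ligand gene Wnt10b, at 0.14, nearest to Twist2 the receptor gene Gpr153, at 0.18, and nearest to Snai1 the carbonyl reductase gene Cbr2, at 0.19. Zeb2 was nearest to Serpinh1, the collagen chaperone gene, at 0.11, Zeb1 to Acap3 at 0.06, Tcf4 to Prune2 at 0.07 and Foxc2 to the ion channel gene Piezo2 at 0.09. These distances rest on 3 groups of 3 libraries and describe likeness only.

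Among the 6 genes for dimer partners of the Twist proteins and for the Id proteins that oppose them, 2 were higher and 3 lower in e1, 3 were higher and 2 lower in e2, and 5 were higher and 0 lower in e2 than in e1 (5 and 1 without e1 library 1). The shares of all genes called, 70.6%, 73.5% and 70.3%, are near these, so the values of the single genes follow. Tcf3 and Tcf12, which encode the other E-proteins, were higher in both lines. Tcf3 averaged 60.8 ± 3.56 TPM in e1 and 57.2 ± 2.09 TPM in e2, against 35.0 ± 0.735 TPM in parental cells (SD, n = 3 each; 0.78, adjusted p = 1.53e-06, and 0.69, adjusted p = 3.25e-06). Tcf12 rose by 0.45 in e1 (adjusted p = 0.000106) and by 0.70 in e2 (adjusted p = 4.22e-06). Id1 stood at 21.8, 34.5 and 33.5 TPM in e1 and at 190, 186 and 194 TPM in e2, against 338, 421 and 395 TPM in parental cells. It fell in both lines, by 3.66 in e1 (adjusted p = 2.95e-08) and by 1.01 in e2 (adjusted p = 0.000247). Id2 fell by 2.998 in e1 (adjusted p = 6.8e-08) and by 0.80 in e2 (adjusted p = 0.00066). Both were higher in e2 than in e1, by 2.65 (adjusted p = 4.29e-07) and 2.19 (adjusted p = 8.93e-07). Id4 stood at 0.456, 0.366 and 0.396 TPM in e1 and at 25.1, 24.7 and 25.3 TPM in e2, against 0.279, 0.269 and 0.379 TPM in parental cells. Id4 rose in e2 alone among the comparisons with parental cells (4.31, adjusted p = 8.03e-11; in e1 0.10, adjusted p = 0.221), and was higher in e2 than in e1 by 4.21 (adjusted p = 3.53e-10). Id4 passed the filter through the e2 libraries alone, where it is high, and the pseudocount sets the size of these changes. Id3 fell in e1 at an adjusted p of 0.0407 (-1.19; -0.64, adjusted p = 0.00342, without e1 library 1), a call that held under 11 of 18 alternatives.

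**Figure D4:**
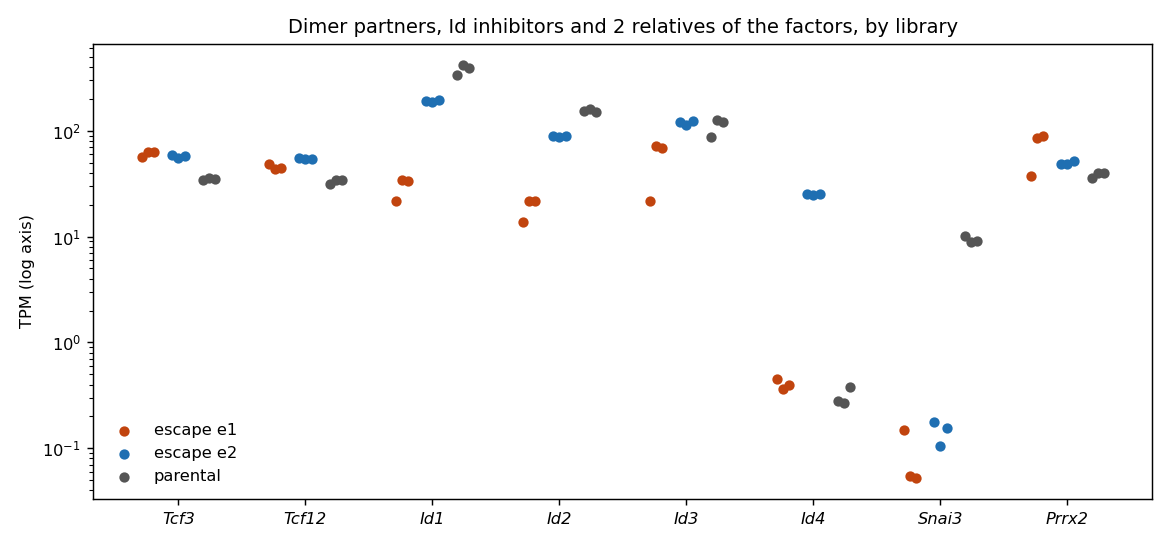
TPM on a log axis of the E-protein genes Tcf3 and Tcf12, the 4 Id genes and the relatives Snai3 and Prrx2, with a point for each library of e1, e2 and parental cells. Id1 and Id2 lie lowest in e1, Id4 is high in e2 only, and Snai3 is near 0 in both escape lines.

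Other genes tied to these factors were counted from lists, beside which stand the 35.7% of all genes called as higher and 34.9% as lower in e1, and the 40.8% and 32.7% in e2. Of 28 tested further factors tied to mesenchymal transition, 16 were higher and 9 lower in e1 (median 0.60, against 0.02 over all genes), and 15 were higher and 6 lower in e2 (median 0.39, against 0.07). Osr1, an odd-skipped zinc finger factor, rose by 2.80 in e1 (adjusted p = 1.18e-09) and by 4.31 in e2 (adjusted p = 8.03e-11), and the ETS factor gene Etv1 by 2.45 (adjusted p = 2.17e-07) and 4.85 (adjusted p = 1.88e-09). Osr1 and Etv1 averaged 0.685 and 0.234 TPM in parental cells, so the size of these changes depends on the pseudocount. The homeobox gene Msx2 was listed at 0 in every e1 library and averaged 0.0122 ± 0.0211 TPM in e2, against 3.28 ± 0.349 TPM in parental cells (SD, n = 3 each), and passed as lower in both lines (adjusted p = 1.15e-08 in e1 and 1.1e-08 in e2). Msx2 passed the filter through parental libraries alone, which favoured a lower escape level. Between the lines, the T-box gene Tbx3 was higher in e2 by 3.19 (adjusted p = 6.89e-10), and Tbx18, of the same family, was lower at -1.99 (adjusted p = 2.99e-08). Tbx3 averaged 8.20 TPM in e2 and 0.00772 TPM in e1, and Tbx18 0.0970 TPM in e2 and 3.37 TPM in e1. Each passed the filter through the line where it is high, and the pseudocount sets the size of its change. Of 21 epithelial genes that Snail and Zeb factors are reported to repress, 0 were higher and 21 lower in e1, and likewise 0 and 21 in e2, with medians of -4.46 and -4.06. All 21 stood at 1 TPM or more in every parental library. Some, such as Cldn4 and Cldn7, passed the filter through parental libraries alone, so for these the filter itself favoured a lower escape level. Cdh1 stood at 9.56 ± 2.58 TPM in e1 and at 21.0 ± 0.82 TPM in e2, against 227 ± 4.92 TPM in parental cells (SD, n = 3 each). Of 12 tested epithelial factors that oppose the transition, 0 were higher and 12 lower in e1, and 1 was higher and 11 lower in e2. All 12 stood at 1 TPM or more in every parental library, and some, such as Ehf, passed the filter through those libraries alone. The ETS factor gene Elf3 fell by 3.81 in e1 (adjusted p = 3.35e-07) and by 3.83 in e2 (adjusted p = 2.81e-07). The gene that rose in e2 was Klf4, at 0.80 (adjusted p = 5.88e-06), which fell by 1.94 in e1 (adjusted p = 1.18e-08). Of 26 tested mesenchymal genes tied to their activity, 22 were higher and 0 lower in e1, and 24 were higher and 0 lower in e2, though 11 of the 26 alone stood at 1 TPM or more in every parental library. Without e1 library 1 these counts were 21 and 0 in e1, and 24 and 1 in e2. The smooth muscle actin gene Acta2 averaged 263 ± 82.6 TPM in e1 and 21.3 ± 0.581 TPM in e2, against 0.0577 ± 0.0337 TPM in parental cells (SD, n = 3 each), and was lower in e2 than in e1 (-3.52, adjusted p = 1.27e-07).

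Among the markers of other cell types, most of those of fibroblasts rose in both escape lines. Cd68 alone was tested and called among leukocyte markers, and Cspg4 alone among pericyte and smooth muscle markers. No endothelial marker reached the filter. In bulk RNA, fewer cells of a type and less RNA per cell cannot be told apart. The 10 fibroblast markers summed to 313 to 328 TPM in the e1 libraries and 315 to 327 TPM in the e2 libraries, against 0.680 to 1.03 TPM in the parental libraries. Their means reached 1 TPM for 6 of 10 markers in e1 and for 8 of 10 in e2, against 0 of 10 in parental cells. The make-up of the sum differed between the lines. Col1a1, Col1a2 and Col3a1 averaged 103, 116 and 76.5 TPM in e1 and 34.7, 82.0 and 53.7 TPM in e2. These collagen genes and Dcn are also on the list of mesenchymal genes above. Lum was listed at 0 in all 9 libraries and Fap in every e1 library. Dcn averaged 0.148 ± 0.0708 TPM in e1 and 35.5 ± 0.853 TPM in e2 and was listed at 0 in the parental libraries. The podoplanin gene Pdpn averaged 0.0518 ± 0.00931 TPM in e1 and 70.3 ± 0.562 TPM in e2, against 0.0722 ± 0.0562 TPM in parental cells (SD, n = 3 each). The part of fibroblast cells in the levels of Prrx1, Twist1, Twist2, Zeb2 and the other members was not tested. The 7 leukocyte markers summed to 3.003 to 4.17 TPM in e1 and 5.23 to 5.91 TPM in e2, against 2.19 to 2.996 TPM in parental cells, with Cd3e listed at 0 throughout, and the 4 endothelial markers stayed under 1 TPM in sum in every library. The 4 pericyte and smooth muscle markers summed to 13.6 to 17.0 TPM in e1 and 14.8 to 16.8 TPM in e2, against 0.110 to 0.285 TPM in parental cells, and Cspg4 alone averaged 15.0 ± 1.79 TPM in e1 and 15.5 ± 1.07 TPM in e2 (SD, n = 3 each). The 6 epithelial markers, which check the label of carcinoma cells, summed to 1164 to 1207 TPM in e1 and 1675 to 1735 TPM in e2, against 8044 to 9324 TPM in parental cells, and all 6 were lower in both lines. Library 1 of e1 held the lowest of the 3 e1 values for 6 of the 9 members and for 50.7% of all tested genes; without it the calls of all members against parental cells kept their direction and side of the threshold.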

How the data were processed

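RNA was sequenced in 9 libraries, grouped and numbered by their titles. The authors deposited gene-level TPM and, separately, rlog values on a log2 scale; Salmon, DESeq2 and mm10 are what the authors used, per the submitters' processing notes. Versions, annotation and strand setting were not given in the sources used here. No counting interval can be had, since TPM keeps no depth. On log2(TPM + 1), 3 group means were fitted with limma 3.58.1 (R 4.3.3, trended and robust empirical Bayes) to the 12769 genes that reached 1 TPM in 3 or more libraries, with Benjamini-Hochberg adjustment; the steps were tested on simulated data. Members and lists were chosen with earlier results of these data known. All members are named, with the genes nearest to each in pattern (root-mean-square difference of centred log2 profiles; 3 were computed per member) and called genes among the 3 largest changes per list, comparison and direction. Cdh1, Foxc1, Prrx2 and Zeb2os were named after their values were seen; markers are named as checks. Coordinates and promoters come from RefSeq on GRCm38.p6. The other settings tried were a 0.1 pseudocount, keeping all genes, a 5 TPM minimum, scaling by median ratios, dropping the 10 most abundant genes, the rlog table, fits of only the 2 groups compared, a block for the library number, plain empirical Bayes, and omission of each library in turn.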

Additional observations from a re-analysis of the deposited data

Results flagged for a closer look

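The effect in e2 differed from the effect in e1 for 7 of the 9 factors, near the 70.3% of all tested genes for which it did. The test is the e2 against e1 term of the limma fit, with adjusted p over 12769 genes, and both effects share the parental libraries. Prrx1 differed by 5.18 (adjusted p = 5.2e-11), Tcf4 by 0.77 (adjusted p = 9.72e-06) and Twist2 by 0.61 (adjusted p = 0.00154), each with the effect in e2 above that in e1. Snai2 differed by -2.43 (adjusted p = 5.28e-08), Snai1 by -1.26 (adjusted p = 3.29e-05), Foxc2 by -0.71 (adjusted p = 9.38e-05) and Twist1 by -0.45 (adjusted p = 0.00132), each with the effect in e2 below that in e1. In each of the 7, all 3 e2 libraries lay on the same side of all 3 e1 libraries, and 76.5% of all tested genes had no overlap between e2 and e1. With 3 libraries in each group, no test for single outlying libraries was made. Each library was omitted in turn, and e1 library 1 was looked at apart from the others.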

How the results depend on the processing

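Over the alternatives, 478 fold changes of single members kept their direction and their side of the threshold, 5 newly passed, and 0 turned round; the 5 concern Zeb1 and Zeb2 in e2 against e1. Many alternatives cannot turn a direction, as they change the genes kept or the variance and leave the fold change as it was. These are the filter settings, the 2-group fits, the library block and plain empirical Bayes. Omission of a library from the group not compared is another. Foxc2 has no value under the filter of 5 TPM, which removes it. Leaving out 1 library at a time, the number of factors called stayed at 9 in e1 and 8 in e2 against parental cells, and at 7 to 8 in e2 against e1, while all genes called ran from 8348 to 9695, 8683 to 10246 and 8198 to 9331. With the library number as a block, 8742 genes and 9 factors were called in e1, 9163 genes and 8 factors in e2, and 8740 genes and 7 factors in e2 against e1. Same-numbered libraries of different groups do not deviate together (correlations of -0.13 to 0.05), and 3 of 9 libraries lay nearest their own number. The fold change of Foxc2 against parental cells depends on the pseudocount, as it is listed at 0 there. The unknown depth limits what can be said of levels under about 1 TPM.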

Other observations

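The counts called in either direction over the lists of corepressors, modifying enzymes and inducing signals stand beside the shares of all genes called, which were 70.6% in e1 (35.7% higher, 34.9% lower) and 73.5% in e2 (40.8% higher, 32.7% lower), and nothing particular to these lists is read from them. Of 21 tested corepressors and chromatin partners, 8 were higher and 5 lower in e1, while 4 were higher and 13 lower in e2 (medians 0.07 and -0.32, against 0.02 and 0.07 over all genes). Wtip, an Ajuba family LIM protein, averaged 7.42 ± 1.54 TPM in e1 and 0.192 ± 0.0255 TPM in e2, against 8.97 ± 0.847 TPM in parental cells (SD, n = 3 each), and was lower in e2 by both comparisons (adjusted p = 1.92e-08 against parental cells and 7.68e-08 against e1, limma). Its relative Ajuba, a LIM protein reported as a corepressor of Snail, averaged 65.6 ± 4.86 TPM in e1 and 16.3 ± 0.821 TPM in e2, against 48.6 ± 2.16 TPM in parental cells (SD, n = 3 each). Of 23 tested ligases, kinases and deubiquitinases that act on the factors, 7 were higher and 8 lower in e1, and 8 were higher and 9 lower in e2. Fbxl5, a ligase subunit reported to act on Snail, fell by 1.17 in e1 (adjusted p = 9.31e-08) and by 0.36 in e2 (adjusted p = 0.000375), and the kinase gene Gsk3b, whose product marks Snail for degradation, fell by 0.61 in e2 (adjusted p = 1.57e-05) and did not pass in e1 (0.07, adjusted p = 0.337).

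Of 31 tested genes for signals that induce the factors, 15 were higher and 10 lower in e1 and 19 were higher and 5 lower in e2 (medians 0.09 and 0.68); without e1 library 1 the number lower in e1 was 8. The ligand gene Tgfb3 rose by 3.86 in e1 (adjusted p = 7.47e-09) and by 2.69 in e2 (adjusted p = 8.17e-08), and the receptor gene Fgfr1 by 4.62 (adjusted p = 5.69e-09) and 3.78 (adjusted p = 2.03e-08). The Notch ligand gene Jag1 fell by 2.53 in e1 (adjusted p = 1.29e-08) and by 1.70 in e2 (adjusted p = 1.94e-07). Bmp2 fell by 2.48 in e1 (adjusted p = 1.59e-07) and rose by 0.77 in e2 (adjusted p = 0.000567), a difference between the lines of 3.24 (adjusted p = 4.88e-08).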
